A study of Mus musculus with 15 samples.

Results

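The genes of T cells, natural killer (NK) cells and intraepithelial lymphocytes were examined in the distal jejunum of the mouse, the lower end of the middle small intestine. The set comprised 46 named genes out of 26844 in the deposited table. All 46 were present, and 44 passed the filter on low values (at least 10 normalised counts in at least 3 libraries). Eomes, a T-box transcription factor of NK and T cells, and Sh2d1a, an adaptor of the SLAM receptors, did not pass it. The RNA came from frozen tissue of male C57BL/6 mice aged 13 to 15 weeks. Mice with a whole-body loss of the proteins Aster-B and Aster-C (KO) were compared with wild-type mice (WT). Aster proteins, products of the Gramd1 genes, carry cholesterol between membranes. Every group ate a diet with 0.08% cholesterol, and 2 of the 4 groups had 0.01% ezetimibe added to it. Ezetimibe inhibits NPC1L1, through which enterocytes take up dietary cholesterol. There were 4 KO and 4 WT libraries on ezetimibe, and 3 KO and 4 WT libraries on the control diet without the drug. The labels name no promoter or Cre, since the deletion is global, and do not say whether each library came from a separate animal, so the p-values cover only a spread between samples that may be technical.

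Intraepithelial lymphocytes sit between the epithelial cells of the intestine, and in the mouse jejunum most of them carry the CD8 coreceptor. They home to the epithelium through the chemokine receptor CCR9, are held there by the integrin chain CD103, and depend on interleukin 15 presented by epithelial cells. They are known for a steady store of granzymes and for receptors shared with NK cells. Several genes of the set (Ptprc, Dock2, Sash3, Rac2, Coro1a, Pik3cd and Ikzf3) are expressed by B cells or myeloid cells as well, so they mark leukocytes in general.

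Values are the authors' DESeq2-normalised counts, reads per gene divided by a size factor of the library. Whole reads recovered from them summed to between 13855034 and 19307079 per library. The deleted genes were checked first. Gramd1c ranged over 71.8 to 156 normalised counts in KO and 1102 to 1394 in WT on ezetimibe, and over 115 to 194 in KO and 1059 to 1845 in WT on the control diet. Gramd1b ranged over 1744 to 2086 in KO and 2859 to 3697 in WT on ezetimibe, and over 962 to 1247 in KO and 2274 to 4046 in WT on the control diet. Neither gene overlapped between KO and WT on either diet. The 12 enterocyte markers summed to between 724172 and 1216256 normalised counts per library, and all 12 passed the filter. KO ezetimibe replicate 3 and WT control replicate 4 were the 2 extremes of the first principal component, which held 27.7% of the variance.

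Per kilobase of exon, granzyme A was the most abundant of the 46 genes in WT mice on the control diet, with a mean of 2412 normalised counts per kilobase. Ccl5 (923), Gzmb (539) and Cd7 (275) followed, and Klrd1 (168), Cd8a (165) and Nkg7 (162) came next. Eomes (0.30) and Sh2d1a (0.70) were lowest. Cd8b1 stood at 28.2 and Cd4 at 13.6 per kilobase, both far below Cd8a. The sum of the 46 genes was 9141, 9144, 10916 and 8021 normalised counts in KO on ezetimibe, against 13989, 13011, 14367 and 10665 in WT on ezetimibe. On the control diet the sum was 5671, 7559 and 6347 in KO, against 11795, 8422, 12130 and 7788 in WT. The sums of KO and WT did not overlap on the control diet, and on ezetimibe KO replicate 3 lay above WT replicate 4.

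**Figure D1:**
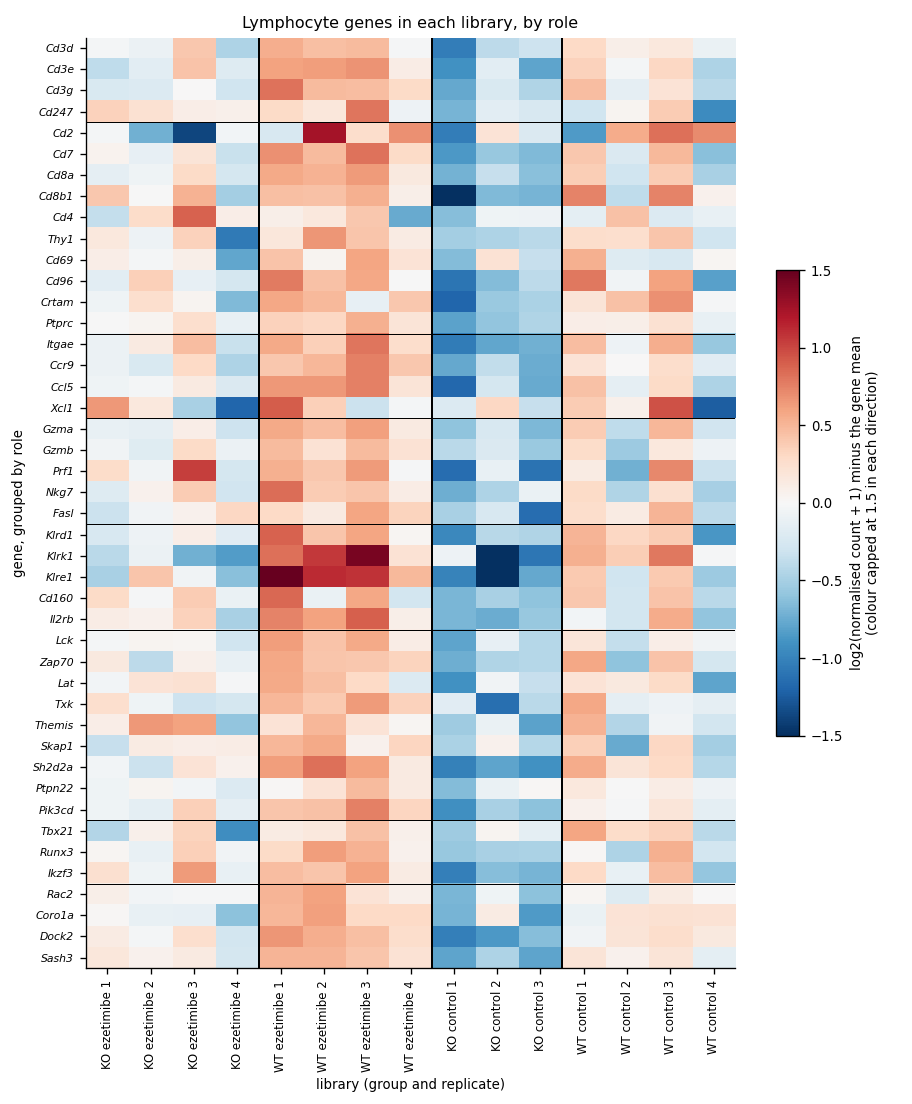
The 44 tested genes (rows, grouped by role) in the 15 libraries (columns, by group), coloured by log2(normalised count + 1) minus the gene's mean over all libraries. Most rows are low in the 3 KO control libraries and high in WT ezetimibe replicates 1 to 3.

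The main result was the difference between genotypes averaged over both diets. Of the 44 tested genes, 18 were lower in KO and 0 were higher (limma, Benjamini-Hochberg adjusted p under 0.05 over all 14299 tested genes). Fold changes are on the log2(normalised count + 1) scale, which understates those of low genes. Over all tested genes 4.04% passed in either direction and 2.4% were lower. The log2 fold change was negative for 44 of 44 genes, with a median of −0.55, beside −0.0021 over all genes. In bulk tissue, fewer cells of a type and less RNA per cell cannot be told apart. The 18 genes were Cd3e, Cd3g, Cd7, Cd8a, Ptprc, Itgae, Ccr9, Ccl5, Gzma, Klrk1, Klre1, Lck, Sh2d2a, Pik3cd, Rac2, Coro1a, Dock2 and Sash3. edgeR's quasi-likelihood test on the recovered reads called 18 genes and DESeq2 27, all lower, beside 2.39% and 4.77% of all tested genes, and 17 were called by all 3 tools. The count depended on single libraries, although the direction of most genes did not. It was 3 without KO control replicate 1, 7 without WT ezetimibe replicate 2, 8 without KO control replicate 3, 8 without KO ezetimibe replicate 4 and 11 without WT ezetimibe replicate 1. The share of all tested genes that passed moved with it, to 0.231%, 0.597%, 1.14%, 1.03% and 2.78% in the same order. Over all 15 fits that each left out 1 library, 43 or 44 of the 44 fold changes were negative. Ptprc and Dock2 passed in 15 of these fits. Sash3, Sh2d2a, Pik3cd, Klre1, Klrk1 and Ccr9 passed in 14, and the other 10 genes in 3 (Rac2) to 11 (Cd3g and Ccl5).

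Ezetimibe, compared with the control diet and averaged over both genotypes, went with higher levels. Of the 44 genes, 10 were higher on ezetimibe and 0 were lower, beside 1.74% higher and 2.48% passing in either direction over all tested genes. The 10 genes were Ptprc, Itgae, Ccl5, Klre1, Il2rb, Sh2d2a, Pik3cd, Ikzf3, Dock2 and Sash3. Of these, 8 were also among the 18 genes lower in KO. Both comparisons rest on the same 15 libraries, the 3 KO control libraries among them. The median log2 fold change was 0.47, beside −0.0014 over all genes, and 42 of 44 were positive. edgeR called 8 of the genes and DESeq2 17, all higher, beside 1.72% and 3.62% of all tested genes, and 8 were called by all 3 tools. Without both ends of the first principal component, an alternative chosen after seeing the data, 3 genes passed, while 20 passed for KO against WT, beside 0.764% and 1.98% of all tested genes. With a single library left out, the count was 3 to 15, and the share of all tested genes 1.05% to 4.04%. It was 3 (1.12% of all tested genes) without KO control replicate 1. It was 4 (1.05% to 1.99% of all tested genes) without WT control replicate 2 or 4, KO ezetimibe replicate 2 or 3, or WT ezetimibe replicate 1, 2 or 3. It was 5 (2.80%) without KO ezetimibe replicate 1, and 6 without KO control replicate 2 (1.11%) or 3 (3.25%). Ptprc, Pik3cd and Dock2 passed in 15 of 15 such fits, Sash3 in 14 and the other 6 genes in 3 to 6. Markers of macrophages and dendritic cells had a median of −0.61 on ezetimibe (10 of 11 negative), stromal markers −0.68 (9 of 9 negative) and Paneth cell markers −0.56 (8 of 8 negative), and their part in the result was not tested.

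**Figure D2:**
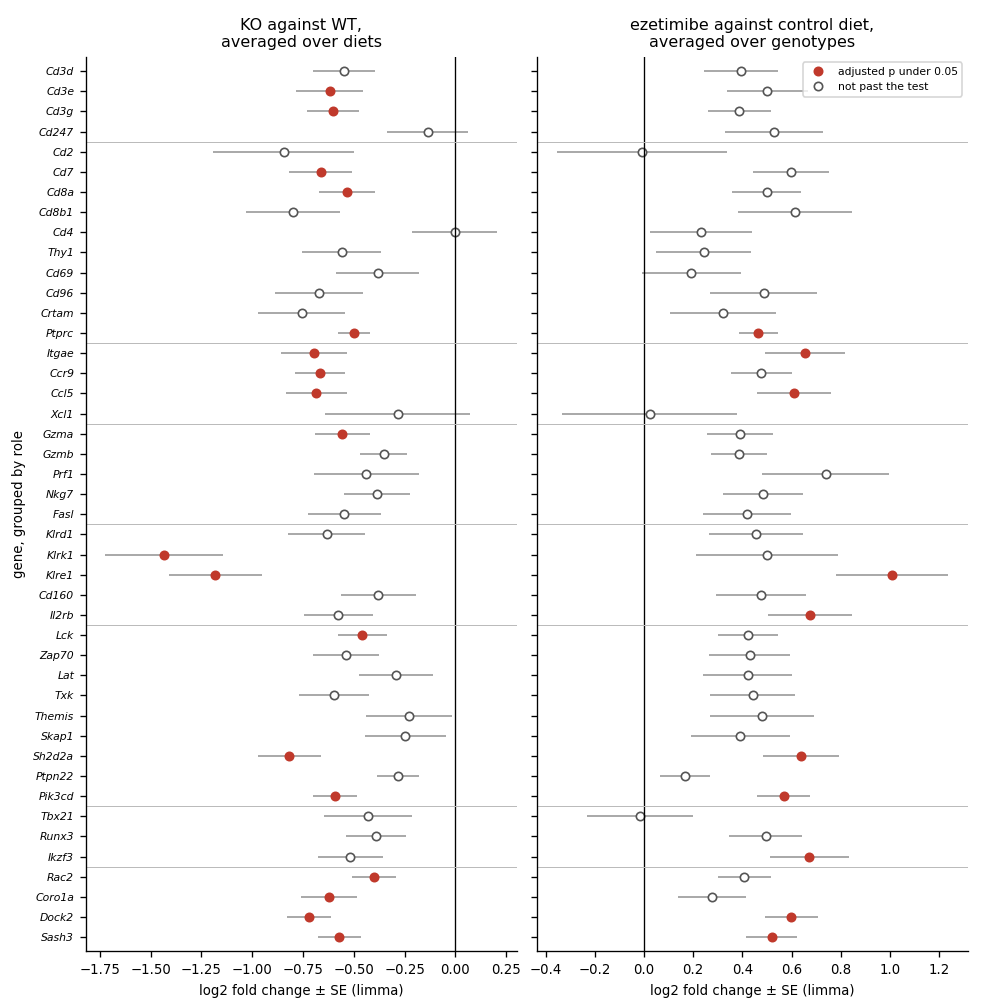
Log2 fold change with its SE for the 44 tested genes, for KO against WT averaged over diets (left) and ezetimibe against control diet averaged over genotypes (right). Filled points passed the test (18 at left, 10 at right); all 44 points in the first panel lie left of 0 and 42 in the second lie right of 0.

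The promoters of 4 genes from different roles are shown: a T cell receptor chain, a kinase, a granzyme and an NK receptor. Sequences are from RefSeq (GRCm38.p6), each from 250 bases before to 50 bases after the start used by that source, 5′ to 3′ on the gene's strand. That start can differ from the GENCODE position printed for the gene. Promoters were available for 30 of the 46 genes, 43 promoters in all, with several for 11 genes. The motifs searched, on both strands, were TGTGGT (the core of RUNX sites), AGGAAG (ETS sites) and GGTGTG (T-box sites). Capitals mark the matches, which do not overlap each other. The windows lie at chr9:45009562-45009861 (Cd3e, minus strand), chr4:129573592-129573891 (Lck, minus strand), chr14:56262285-56262584 (Gzmb, minus strand) and chr6:129577963-129578262 (Klre1, plus strand). The Gzmb window lies wholly outside the GENCODE position given for the gene below, and the Klre1 window lies wholly inside it. These 4 promoters were chosen after their matches were seen.
Cd3e: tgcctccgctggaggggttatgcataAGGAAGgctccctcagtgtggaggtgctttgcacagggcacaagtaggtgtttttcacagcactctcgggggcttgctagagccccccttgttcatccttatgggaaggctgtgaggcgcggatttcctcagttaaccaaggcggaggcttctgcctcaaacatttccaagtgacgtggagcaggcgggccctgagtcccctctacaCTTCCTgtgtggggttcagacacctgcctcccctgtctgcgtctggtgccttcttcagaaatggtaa
Lck: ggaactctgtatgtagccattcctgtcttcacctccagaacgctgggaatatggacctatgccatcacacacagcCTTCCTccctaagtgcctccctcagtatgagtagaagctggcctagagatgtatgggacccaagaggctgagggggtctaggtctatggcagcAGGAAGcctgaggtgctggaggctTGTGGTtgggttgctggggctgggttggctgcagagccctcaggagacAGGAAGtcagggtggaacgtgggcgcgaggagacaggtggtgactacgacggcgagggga
Gzmb: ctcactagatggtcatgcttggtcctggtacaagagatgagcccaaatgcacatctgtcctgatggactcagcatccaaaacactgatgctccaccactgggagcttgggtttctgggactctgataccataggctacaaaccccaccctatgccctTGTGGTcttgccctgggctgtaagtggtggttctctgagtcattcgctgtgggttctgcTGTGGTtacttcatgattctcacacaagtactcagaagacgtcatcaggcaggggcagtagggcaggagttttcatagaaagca
Klre1: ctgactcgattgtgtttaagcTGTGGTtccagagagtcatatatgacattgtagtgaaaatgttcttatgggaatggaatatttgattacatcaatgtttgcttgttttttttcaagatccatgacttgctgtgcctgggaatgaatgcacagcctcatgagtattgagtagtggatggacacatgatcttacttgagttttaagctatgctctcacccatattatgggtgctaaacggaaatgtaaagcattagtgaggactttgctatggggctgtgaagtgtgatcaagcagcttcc
The Cd3e window held 2 ETS matches, the Lck window 3 ETS matches and 1 RUNX match, the Gzmb window 2 RUNX matches and the Klre1 window 1 RUNX match. Over the 43 promoters, 37.2% held the RUNX letters, 58.1% the ETS letters and 27.9% the T-box letters. The shares over all 32851 promoters of the same length were 16.8%, 35.4% and 19.0%. The set is made of lymphocyte genes, and a link between the matches and the fold changes was not tested. A match describes letters only, and binding was not measured.

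The CD3 chains carry the signal of the T cell receptor into the cell. Of the 4 chains, 2 were lower in KO averaged over diets, with a median of −0.58. Cd3e (ENSMUSG00000032093, chromosome 9, 44998740 to 45009627, minus strand, mm10) had 126, 148, 223 and 145 normalised counts in KO on ezetimibe, against 252, 255, 264 and 178 in WT on ezetimibe. Control-diet Cd3e values were 87.7, 148 and 95.3 in KO, against 210.1, 162, 205 and 120.2 in WT. WT ezetimibe replicate 4 was low for its group, and KO and WT overlapped on both diets. In KO, Cd3e was at −0.62 ± 0.164 (SE, limma adjusted p = 0.0469) on the log2 scale, or 65.1% of the WT level. Cd3g (ENSMUSG00000002033, chromosome 9, 44969572 to 44980431, minus strand) had 231, 236, 272 and 220.5 normalised counts in KO on ezetimibe, against 479, 377, 374 and 332 in WT on ezetimibe. Control-diet Cd3g values were 159, 233 and 198 in KO, against 374, 248, 314 and 205 in WT. Every KO value lay below every WT value on ezetimibe, with overlap on the control diet, and Cd3g in KO was at −0.60 ± 0.128 (SE, limma adjusted p = 0.0244). Cd3d (ENSMUSG00000032094, chromosome 9, 44981786 to 44987339, plus strand) had 79.2, 76.1, 107 and 58.6 normalised counts in KO on ezetimibe, against 118, 111, 113 and 79.8 in WT on ezetimibe. Control-diet Cd3d values were 39.0, 61.5 and 65.0 in KO, against 99.3, 86.3, 90.7 and 75.4 in WT. KO and WT separated on the control diet and overlapped on ezetimibe, and the difference, −0.55 ± 0.151 (SE, limma adjusted p = 0.0529), missed the threshold. Cd247, the zeta chain, was at −0.13 ± 0.199 (SE, limma adjusted p = 0.735), and 60.3% of its exonic length overlaps other genes. None of the 4 chains passed the test for ezetimibe averaged over genotypes, with a median of 0.45.

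Coreceptors and surface molecules comprised 10 genes, of which Cd7, Cd8a and Ptprc were lower in KO, with a median of −0.61. Cd8a (ENSMUSG00000053977, chromosome 6, 71373427 to 71379173, plus strand), the chain of both forms of CD8, had 533, 556, 715 and 487 normalised counts in KO on ezetimibe, against 865, 838, 911 and 648 in WT on ezetimibe. Control-diet Cd8a values were 357, 458 and 378 in KO, against 752, 474, 762 and 418 in WT. KO ezetimibe replicate 3 lay above WT ezetimibe replicate 4, and KO control replicate 2 above WT control replicate 4, so the genotypes overlapped on both diets. Cd8a in KO was at −0.53 ± 0.139 (SE, limma adjusted p = 0.0444). Cd8b1 (ENSMUSG00000053044, chromosome 6, 71322788 to 71337494, plus strand), the chain found only in the CD8 form of conventional T cells, had 42.8, 32.2, 46.7 and 22.4 normalised counts in KO on ezetimibe, against 44.4, 44.1, 47.2 and 34.4 in WT on ezetimibe. Control-diet Cd8b1 values were 8.93, 19.9 and 19.5 in KO, against 54.4, 24.5, 54.6 and 33.6 in WT. All KO values lay below all WT values on the control diet but not on ezetimibe. With both diets averaged Cd8b1 was at −0.80 ± 0.231 (SE, limma adjusted p = 0.061), and within the control diet at −1.33 ± 0.339 (SE, limma adjusted p = 0.0855), neither past the threshold. Cd4 (ENSMUSG00000023274, chromosome 6, 124864692 to 124888221, minus strand), the coreceptor for class II molecules, had 41.8, 65.4, 100.4 and 57.5 normalised counts in KO on ezetimibe, against 57.0, 60.1, 71.7 and 31.6 in WT on ezetimibe. Control-diet Cd4 values were 34.1, 51.6 and 50.9 in KO, against 48.7, 73.6, 46.4 and 49.9 in WT. The groups overlapped on both diets and Cd4 in KO was at −0.00289 ± 0.208 (SE, limma adjusted p = 0.995), with a larger SE than Cd8a. That value is an average of opposite signs, 0.25 on ezetimibe and −0.26 on the control diet, neither past the threshold.

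Ptprc (ENSMUSG00000026395, chromosome 1, 138062861 to 138175708, minus strand) encodes CD45, the phosphatase of all leukocytes. It had 857, 882, 1018 and 791 normalised counts in KO on ezetimibe, against 1091, 1062, 1247 and 982 in WT on ezetimibe. Control-diet Ptprc values were 490.2, 568 and 628 in KO, against 917, 911, 1003 and 796 in WT. KO and WT separated on the control diet, and on ezetimibe KO replicate 3 lay within the WT range. Ptprc was at −0.50 ± 0.0795 (SE, limma adjusted p = 0.0121) in KO and at 0.47 ± 0.0795 (SE, limma adjusted p = 0.00778) on ezetimibe. Cd7 (ENSMUSG00000025163, chromosome 11, 121036747 to 121039418, minus strand), a surface glycoprotein of T and NK cells, had 304, 269, 337 and 233 normalised counts in KO on ezetimibe, against 473, 408, 516 and 357 in WT on ezetimibe. Control-diet Cd7 values were 162, 197 and 185 in KO, against 391, 252, 411 and 191 in WT. The genotypes separated on ezetimibe, and on the control diet WT replicate 4 lay within the KO range. Cd7 in KO was at −0.66 ± 0.154 (SE, limma adjusted p = 0.0305), and on ezetimibe at 0.60 ± 0.154 (SE, limma adjusted p = 0.0515), short of the threshold. Of its exonic length, 10.8% overlaps the gene model Gm11775. Cd2, Thy1, Cd69, Cd96 and Crtam, adhesion and activation molecules, lay between −0.85 (Cd2) and −0.38 (Cd69), and none passed.

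Among the homing and chemokine genes, 3 of 4 were lower in KO and 2 of 4 higher on ezetimibe. Itgae (ENSMUSG00000005947, chromosome 11, 73090583 to 73147446, plus strand) encodes CD103, which binds E-cadherin on epithelial cells. It had 359, 417, 525 and 303 normalised counts in KO on ezetimibe, against 565, 489, 665 and 456 in WT on ezetimibe. Control-diet Itgae values were 183, 221 and 231 in KO, against 523, 361, 555 and 256 in WT. The genotypes separated on the control diet and overlapped on ezetimibe, where KO replicate 3 was high and WT replicate 4 low. Itgae was at −0.70 ± 0.163 (SE, limma adjusted p = 0.0313) in KO and at 0.65 ± 0.163 (SE, limma adjusted p = 0.0477) on ezetimibe. Ccr9 (ENSMUSG00000029530, chromosome 9, 123678439 to 123784330, plus strand), the receptor for the chemokine CCL25 of the small intestine, had 105, 95.4, 138 and 81.0 normalised counts in KO on ezetimibe, against 148, 158, 189 and 148 in WT on ezetimibe. Control-diet Ccr9 values were 64.9, 86.0 and 66.1 in KO, against 129, 112, 134 and 98.8 in WT. Each KO value lay below each WT value on both diets, and each WT value on ezetimibe lay above each WT value on the control diet. Ccr9 in KO was at −0.67 ± 0.124 (SE, limma adjusted p = 0.0181), and 21.7% of its exonic length overlaps other genes. Ccl5 (ENSMUSG00000035042, chromosome 11, 83525778 to 83530518, minus strand), a chemokine made by activated and memory lymphocytes, had 805, 823, 921 and 725 normalised counts in KO on ezetimibe, against 1319, 1315, 1418 and 958 in WT on ezetimibe. Control-diet Ccl5 values were 372, 698 and 496 in KO, against 1144, 766, 1025 and 607 in WT. The genotypes separated on ezetimibe and overlapped on the control diet through KO replicate 2 and WT replicate 4. Ccl5 was at −0.68 ± 0.149 (SE, limma adjusted p = 0.0265) in KO and at 0.61 ± 0.149 (SE, limma adjusted p = 0.0457) on ezetimibe. Xcl1, a chemokine that attracts dendritic cells, was low and at −0.28 ± 0.355 (SE, limma adjusted p = 0.685) in KO.

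**Figure D3:**
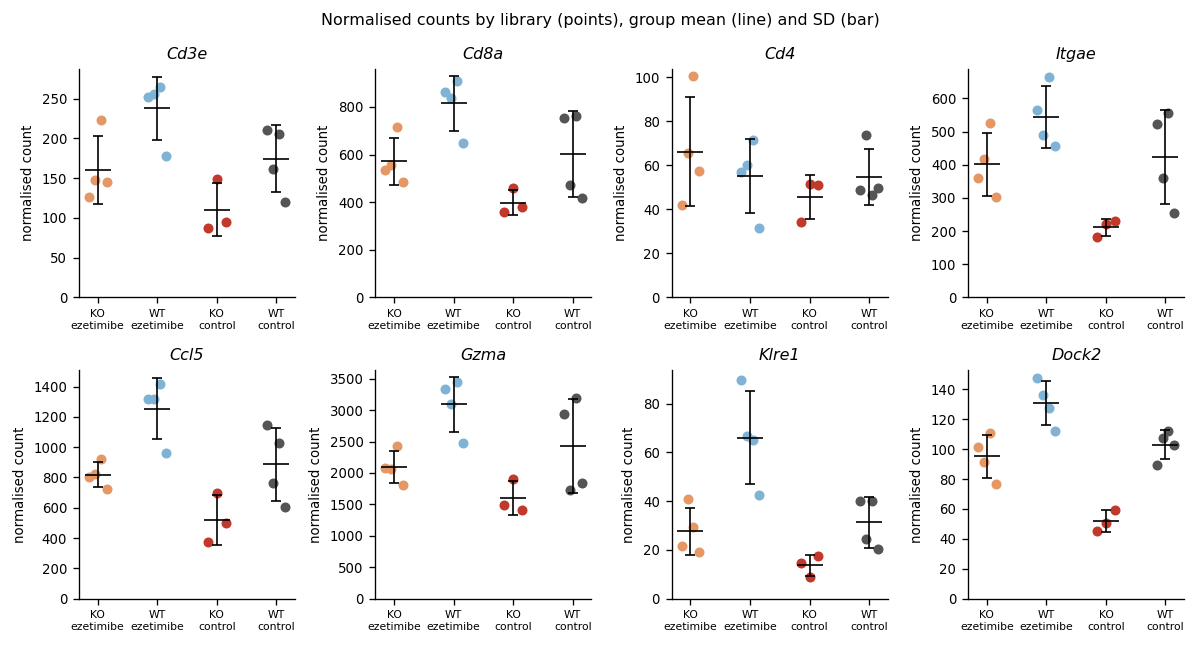
Normalised counts of 8 genes in each library (points) with the group mean (line) and SD (bar), from left KO and WT on ezetimibe and KO and WT on the control diet. In 7 of the 8 panels both KO groups have a lower mean than the WT group of the same diet; Cd4 on ezetimibe is the exception.

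Of the 5 cytotoxic genes, only Gzma was lower in KO, and the list's median was −0.44. Gzma (ENSMUSG00000023132, chromosome 13, 113093825 to 113100981, minus strand), a serine protease of cytotoxic granules, had 2086, 2058, 2422 and 1812 normalised counts in KO on ezetimibe, against 3342, 3105, 3447 and 2471 in WT on ezetimibe. Control-diet Gzma values were 1488, 1910.2 and 1411 in KO, against 2932, 1727, 3197 and 1848 in WT. The genotypes separated on ezetimibe and overlapped on the control diet, and Gzma in KO was at −0.56 ± 0.135 (SE, limma adjusted p = 0.0355). Gzmb (ENSMUSG00000015437, chromosome 14, 56258838 to 56262260, minus strand), the granzyme that cleaves caspases, had 749.7, 688, 948 and 734 normalised counts in KO on ezetimibe, against 1079, 907, 1086 and 908 in WT on ezetimibe. Control-diet Gzmb values were 591, 669 and 529 in KO, against 944, 536, 872 and 742 in WT. Both diets showed overlap, and the difference, −0.35 ± 0.114 (SE, limma adjusted p = 0.0869), missed the threshold. Fasl (ENSMUSG00000000817, chromosome 1, 161780689 to 161788495, minus strand), the ligand of the death receptor Fas, had 25.7, 31.1, 33.9 and 40.5 normalised counts in KO on ezetimibe, against 40.1, 35.7, 49.1 and 40.9 in WT on ezetimibe. Control-diet Fasl values were 22.7, 27.1 and 14.1 in KO, against 39.2, 35.4, 46.4 and 24.5 in WT. Its values overlapped on both diets and it was at −0.55 ± 0.178 (SE, limma adjusted p = 0.0893) in KO. Prf1, the pore-forming perforin, was at −0.44 ± 0.259 (SE, limma adjusted p = 0.338), and Nkg7, a granule membrane protein, at −0.39 ± 0.162 (SE, limma adjusted p = 0.175). The 5 genes had a median of 0.42 on ezetimibe, and none of them passed that test.

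The NK receptors Klrk1 and Klre1 had the 2 largest fold changes of the 44 genes in KO. Klrk1 (ENSMUSG00000030149, chromosome 6, 129610323 to 129623864, minus strand) encodes NKG2D, which binds stress-induced ligands. It had 7.50, 9.65, 5.84 and 5.33 normalised counts in KO on ezetimibe, against 19.0, 22.5, 29.2 and 12.1 in WT on ezetimibe. Control-diet Klrk1 values were 9.74, 1.81 and 4.33 in KO, against 15.3, 13.6, 18.5 and 10.2 in WT. All KO values lay below all WT values on both diets, with 29.2 as the highest value. Klrk1 in KO was at −1.43 ± 0.289 (SE, limma adjusted p = 0.0223), or 37.0% of the WT level. Klre1 (ENSMUSG00000050241, chromosome 6, 129577905 to 129585827, plus strand), a lectin-like NK receptor, had 21.4, 40.7, 29.2 and 19.2 normalised counts in KO on ezetimibe, against 89.8, 66.7, 65.1 and 42.7 in WT on ezetimibe. Control-diet Klre1 values were 14.6, 9.05 and 17.3 in KO, against 40.1, 24.5, 40.2 and 20.4 in WT. KO and WT separated on both diets, and in both genotypes the ezetimibe values lay above the control-diet values. Klre1 was at −1.18 ± 0.229 (SE, limma adjusted p = 0.0211) in KO and at 1.01 ± 0.229 (SE, limma adjusted p = 0.0332) on ezetimibe. Il2rb (ENSMUSG00000068227, chromosome 15, 78479256 to 78495271, minus strand), the chain shared by the receptors for interleukins 2 and 15, had 198, 192, 232 and 130.0 normalised counts in KO on ezetimibe, against 308, 279.8, 341 and 194 in WT on ezetimibe. Control-diet Il2rb values were 114, 109 and 123 in KO, against 178, 151, 269 and 121 in WT. Ezetimibe values lay above control-diet values in KO but not in WT. Il2rb was at 0.67 ± 0.171 (SE, limma adjusted p = 0.0493) on ezetimibe and at −0.58 ± 0.171 (SE, limma adjusted p = 0.0666) in KO, the second short of the threshold. Klrd1, the CD94 partner of NKG2 receptors, was at −0.63 ± 0.190 (SE, limma adjusted p = 0.0687), and Cd160, a receptor of cytotoxic lymphocytes, at −0.38 ± 0.183 (SE, limma adjusted p = 0.237).

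Signalling proteins below the receptors comprised 10 genes with 9 tested. Of these 3 were lower in KO (Lck, Sh2d2a and Pik3cd), with a median of −0.46, and 2 were higher on ezetimibe. Lck (ENSMUSG00000000409, chromosome 4, 129548344 to 129573641, minus strand), the kinase bound to CD4 and CD8, had 172, 181, 179.8 and 143 normalised counts in KO on ezetimibe, against 272, 237, 262 and 190.3 in WT on ezetimibe. Control-diet Lck values were 101, 161 and 131 in KO, against 201, 137, 189.6 and 169 in WT. The genotypes separated on ezetimibe but not on the control diet, and Lck in KO was at −0.46 ± 0.121 (SE, limma adjusted p = 0.0469). Sh2d2a (ENSMUSG00000028071, chromosome 3, 87846755 to 87855722, plus strand), an adaptor that binds Lck, had 60.0, 49.3, 71.2 and 65.0 normalised counts in KO on ezetimibe, against 96.1, 111, 94.3 and 67.8 in WT on ezetimibe. Control-diet Sh2d2a values were 30.0, 35.3 and 32.5 in KO, against 91.7, 70.8, 76.2 and 45.9 in WT. KO and WT separated on the control diet, and on ezetimibe KO replicate 3 lay above WT replicate 4. Sh2d2a was at −0.82 ± 0.154 (SE, limma adjusted p = 0.0193) in KO and at 0.64 ± 0.154 (SE, limma adjusted p = 0.043) on ezetimibe. Pik3cd (ENSMUSG00000039936, chromosome 4, 149649168 to 149702571, minus strand), the delta isoform of phosphoinositide 3-kinase in leukocytes, had 152, 144, 204 and 145 normalised counts in KO on ezetimibe, against 213, 217, 271 and 201 in WT on ezetimibe. Control-diet Pik3cd values were 83.6, 114 and 104 in KO, against 167, 158, 181 and 145 in WT. The genotypes separated on the control diet, and KO ezetimibe replicate 3 stood apart from its group and within the WT range. Pik3cd was at −0.59 ± 0.107 (SE, limma adjusted p = 0.0173) in KO and at 0.57 ± 0.107 (SE, limma adjusted p = 0.0123) on ezetimibe. Zap70, Lat, Txk, Themis, Skap1 and Ptpn22 lay between −0.60 (Txk) and −0.23 (Themis) in KO, and none passed.

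No transcription factor of the set was lower in KO by the test. Ikzf3 (ENSMUSG00000018168, chromosome 11, 98464902 to 98546031, minus strand), which encodes Aiolos, had 171, 138, 227 and 134 normalised counts in KO on ezetimibe, against 201, 193, 222 and 158 in WT on ezetimibe. Control-diet Ikzf3 values were 70.6, 93.2 and 88.8 in KO, against 179, 134, 201 and 96.8 in WT. In KO every ezetimibe value lay above every control-diet value. Ikzf3 was at 0.67 ± 0.159 (SE, limma adjusted p = 0.0393) on ezetimibe and at −0.52 ± 0.159 (SE, limma adjusted p = 0.0749) in KO. Runx3 (ENSMUSG00000070691, chromosome 4, 135120652 to 135177990, plus strand), needed for CD8 T cell identity, had 77.1, 69.7, 96.9 and 72.4 normalised counts in KO on ezetimibe, against 91.9, 117, 108 and 78.9 in WT on ezetimibe. Control-diet Runx3 values were 50.3, 53.4 and 54.2 in KO, against 76.4, 54.5, 109 and 62.2 in WT. KO and WT were barely apart on the control diet and overlapped on ezetimibe, and Runx3 in KO was at −0.39 ± 0.147 (SE, limma adjusted p = 0.133). Tbx21 (ENSMUSG00000001444, chromosome 11, 97098071 to 97115331, minus strand), which encodes T-bet, had 13.9, 20.4, 24.5 and 9.59 normalised counts in KO on ezetimibe, against 21.1, 21.6, 26.4 and 20.4 in WT on ezetimibe. Control-diet Tbx21 values were 13.0, 19.9 and 17.3 in KO, against 29.6, 23.6, 24.7 and 14.3 in WT. Its groups overlapped on both diets, with −0.43 ± 0.217 (SE, limma adjusted p = 0.261) in KO and −0.02 ± 0.217 (SE, limma adjusted p = 0.977) on ezetimibe. Eomes was at or under 3.25 normalised counts in all 15 libraries.

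All 4 genes of the leukocyte cytoskeleton and adaptors were lower in KO, with a median of −0.60. Dock2 (ENSMUSG00000020143, chromosome 11, 34226815 to 34783892, minus strand), which activates Rac in migrating lymphocytes, had 102, 91.1, 111 and 76.7 normalised counts in KO on ezetimibe, against 148, 136, 127 and 112 in WT on ezetimibe. Control-diet Dock2 values were 45.4, 50.7 and 59.6 in KO, against 89.8, 107, 112 and 103 in WT. Each KO value lay below each WT value of the same diet, and each ezetimibe value above each control-diet value of the same genotype. Dock2 was at −0.72 ± 0.109 (SE, limma adjusted p = 0.00802) in KO and at 0.60 ± 0.109 (SE, limma adjusted p = 0.00982) on ezetimibe. Sash3 (ENSMUSG00000031101, chromosome X, 48146436 to 48161565, plus strand), a lymphocyte adaptor, had 112, 105, 109.8 and 83.1 normalised counts in KO on ezetimibe, against 143, 143, 134 and 116 in WT on ezetimibe. Control-diet Sash3 values were 57.6, 72.4 and 57.4 in KO, against 115, 104, 114 and 90.7 in WT. It showed the same 4 separations as Dock2, at −0.57 ± 0.104 (SE, limma adjusted p = 0.0173) in KO and 0.52 ± 0.104 (SE, limma adjusted p = 0.0164) on ezetimibe. Coro1a (ENSMUSG00000030707, chromosome 7, 126699773 to 126707787, minus strand), an actin-binding protein, had 269, 246, 244 and 173 normalised counts in KO on ezetimibe, against 375, 407, 328 and 326 in WT on ezetimibe. Control-diet Coro1a values were 164, 290.5 and 147 in KO, against 248, 306, 312 and 309 in WT. KO and WT separated on ezetimibe, whereas on the control diet KO replicate 2 was high and WT replicate 1 low. Coro1a in KO was at −0.62 ± 0.138 (SE, limma adjusted p = 0.0269). Rac2 (ENSMUSG00000033220, chromosome 15, 78559167 to 78572783, minus strand), the Rac GTPase of blood cells, had 230.2, 211, 214 and 213 normalised counts in KO on ezetimibe, against 308, 329.6, 249.98 and 227 in WT on ezetimibe. Control-diet Rac2 values were 134, 206 and 141 in KO, against 222, 189.8, 236 and 218 in WT. The genotypes overlapped on both diets, and Rac2, at −0.40 ± 0.108 (SE, limma adjusted p = 0.0499) in KO, lay just inside the threshold.

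Within single diets fewer genes passed. On the control diet 3 of 44 genes were lower in KO, namely Ptprc at −0.69 ± 0.117 (SE, limma adjusted p = 0.0309), Dock2 at −0.98 ± 0.160 (SE, limma adjusted p = 0.0309) and Sash3 at −0.76 ± 0.152 (SE, limma adjusted p = 0.047). Over all tested genes 0.371% passed and 0.224% were lower. The median of the 44 genes was −0.63. Over 15 fits that each left out 1 library, Ptprc and Dock2 passed in 10 and Sash3 in 2, and 41 to 44 fold changes were negative. Fitted on the libraries of the 2 control-diet groups alone, 0 genes passed, while DESeq2 called 11, beside 1.67% lower over all tested genes. All KO values lay below all WT values for 17 of the 44 genes, beside 5.57% of all tested genes. The authors' deposited table for this diet lists 424 genes, 11 of them members of the set and all lower in KO. DESeq2 without a filter on the recovered reads also passed 424 genes and 11 members. That is 1.58% of all 26844 genes, with 0.857% lower. Both counts come from the same reads. The log2 fold change in the authors' deposited table is −1.39 for Cd8b1, −1.13 for Sh2d2a, −1.003 for Itgae, −0.999 for Dock2 and −0.86 for Ikzf3. The same authors' deposited table has Cd7 at −0.78, Ccl5 at −0.76, Sash3 at −0.76, Ccr9 at −0.71, Pik3cd at −0.70 and Ptprc at −0.69.

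On ezetimibe 0 of 44 genes passed for KO against WT by limma, beside 0.00699% of all tested genes. At an unadjusted p under 0.05 there were 23, beside 16.4% of all tested genes, while edgeR called 0 (0.00699% of all tested genes) and DESeq2 1 (0.601%). The median was −0.46, and 43 of 44 fold changes were negative. All KO values lay below all WT values for 13 genes, beside 4.84% of all tested genes. Such separation on both diets was found for Ccr9, Dock2, Klre1, Klrk1, Sash3 and Txk, 6 of 44 genes, beside 0.888% of all tested genes. The authors' deposited table for ezetimibe lists 72 genes, with Klre1 at −1.26 and Cd3g at −0.70 from the set. DESeq2 without a filter on the recovered reads also passed 72 genes and 2 members, beside 0.268% of all 26844 genes.

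Ezetimibe was next compared with the control diet within each genotype. In KO 3 of 44 genes were higher on ezetimibe, Ptprc at 0.66 ± 0.117 (SE, limma adjusted p = 0.0271), Dock2 at 0.86 ± 0.160 (SE, limma adjusted p = 0.0337) and Sash3 at 0.71 ± 0.152 (SE, limma adjusted p = 0.0489), beside 0.434% higher and 0.727% passing over all tested genes. The same 3 genes passed between genotypes without the drug, and both comparisons rest on the same 3 KO control libraries. The median in KO was 0.54. Over the 15 fits without 1 library the count was 0 to 7, DESeq2 called 9 (4.29% higher over all tested genes), and 0 passed with the 2 groups fitted alone or without both ends of the first principal component. In KO 22 genes had every ezetimibe value above every control-diet value, beside 8.64% of all tested genes. In WT 0 genes passed, beside 0.217% of all tested genes. There, 15 of the 44 genes had an unadjusted p under 0.05, beside 5.08% of all tested genes, and edgeR and DESeq2 called 0, beside 0.238% and 0.657% of all tested genes. The median in WT was 0.39, and Ccr9, Coro1a, Dock2, Klre1, Pik3cd and Sash3 separated, 6 genes beside 2.26% of all tested genes. The difference of the ezetimibe effect between genotypes was tested as an interaction. No gene passed it among the 44, beside 0% of all tested genes, with 3 of the 44 at an unadjusted p under 0.05, beside 7.02% of all tested genes. edgeR and DESeq2 called 0 of the 44 as well, beside 0% and 0.035% of all tested genes.

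Whether pairs of genes differed unequally was examined with log2 ratios within each library, taken as (count + 1) of one gene over (count + 1) of the other. Each of 8 ratios was compared between genotypes within diet and between diets within genotype by a two-sided exact permutation test over 2450 assignments, and p-values were adjusted over the 16 tests. None passed. The log2 ratio of Cd4 to Cd8a was higher in KO by 0.53 (exact permutation p = 0.0429, adjusted p = 0.686), which does not survive the adjustment. Gzmb relative to Cd3e was 0.27 higher in KO, with an exact permutation p of 0.091 and an adjusted p of 0.728. Cd8b1 to Cd8a differed by −0.27 (exact permutation adjusted p = 0.822), an average of opposite signs, 0.24 on ezetimibe and −0.77 on the control diet. Itgae to Cd3e differed by −0.08, Ccr9 to Cd3e by −0.05 and Klrd1 to Cd3e by −0.02, with exact permutation adjusted p = 0.907 for each. Itgae to Cd3e too had opposite signs, 0.13 on ezetimibe and −0.28 on the control diet. Ratios of Cd3g and Ptprc to Cd3e differed by 0.01 (−0.11 on ezetimibe and 0.14 on the control diet) and 0.12 (0.27 on ezetimibe and −0.03 on the control diet). A p that misses the threshold does not show that the genes changed equally.

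**Figure D4:**
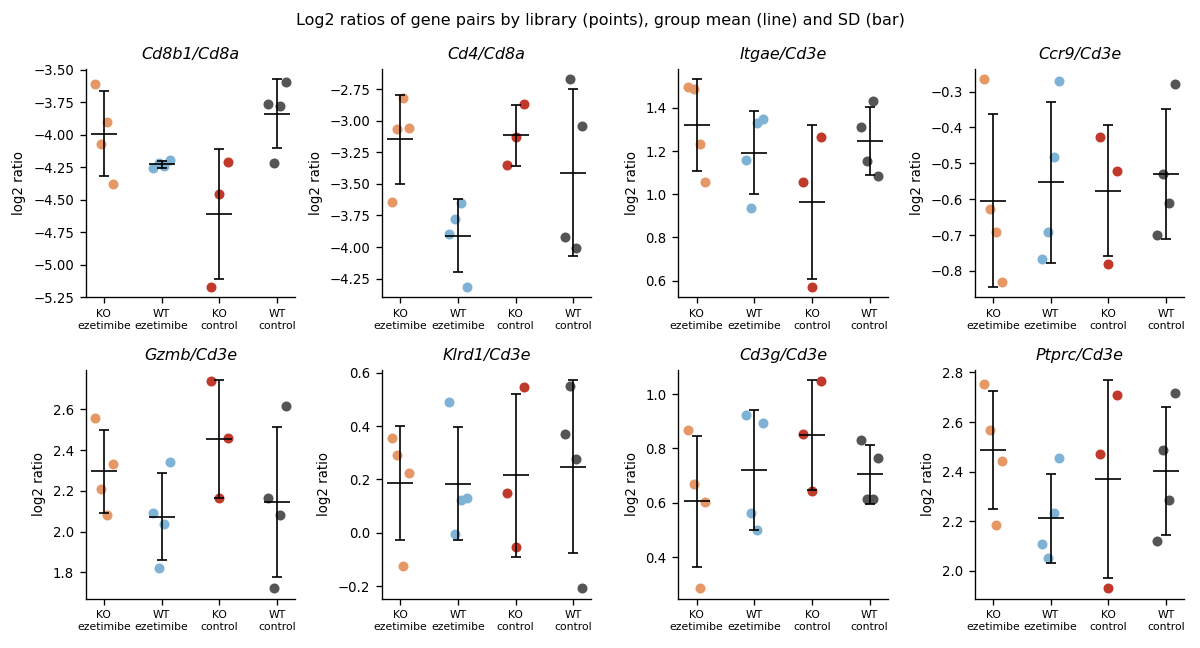
Log2 ratios of 8 gene pairs in each library (points) with the group mean (line) and SD (bar), in the order KO and WT on ezetimibe, then KO and WT on the control diet. KO and WT overlap within each diet in every panel except Cd4 to Cd8a on ezetimibe, where the 4 KO points lie above the 4 WT points.

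Other genes of the same cells, outside the set, were examined by list. Of 29 other T cell genes 25 were tested, with a median of −0.48 in KO averaged over diets and 25 of 25 negative. Of these 25 genes 8 were lower, beside 2.4% of all tested genes. Some constant regions of the T cell receptor chains were among them, namely Trac at −0.65 ± 0.163 (SE, limma adjusted p = 0.0384), Trbc1 at −0.77 ± 0.193 (SE, limma adjusted p = 0.0377) and Trgc1, of the gamma chain, at −0.67 ± 0.148 (SE, limma adjusted p = 0.0266). The remaining 5 were Fyn (a kinase of the Src family), Icos (a costimulatory receptor), Il2rg (the common cytokine receptor chain), Trat1 (an adaptor) and Vav1 (an exchange factor), between −1.57 (Icos) and −0.46 (Vav1). The other constant regions of the list, Trbc2, Trdc, Trgc2 and Trgc4, were not among the 8. Il2rg shares 30.5% of its exonic length with a gene model on the same strand. On ezetimibe averaged over genotypes the 25 genes had a median of 0.32, with 3 of 25 negative. Of the 25 genes 1 passed, and it was higher, beside 1.74% higher over all tested genes. Of 20 other NK and innate lymphoid genes 10 were tested, and Klra5 at −1.11 ± 0.240 (SE, limma adjusted p = 0.0252), Gzmk at −0.66 ± 0.146 (SE, limma adjusted p = 0.0269) and Fcer1g at −0.46 ± 0.110 (SE, limma adjusted p = 0.0332) were lower in KO. That is 3 of 10, beside 2.4% lower over all tested genes. The 10 tested genes had a median of −0.38 in KO averaged over diets, with only 7 of 10 negative. On ezetimibe these 10 genes had a median of 0.13, with 4 of 10 negative and 0 passing. Trbc1 and its near-identical copy Trbc2, the granzymes and the Klra genes belong to families of similar sequence, between which reads can be split.

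Ligands and receptors that the set pairs with were examined next. Of 22 such genes 19 were tested and 0 passed for KO against WT, beside 4.04% of all tested genes, with a median of 0.03. Cd48, a ligand of SLAM family receptors, was at −0.47 ± 0.149 (SE, limma adjusted p = 0.0796). Ccl25, the ligand of CCR9, averaged 8508 ± 1259 normalised counts in KO and 9427 ± 986 in WT on ezetimibe (SD, n = 4 each), and 10378 ± 758 in KO (SD, n = 3) and 9430 ± 265 in WT (SD, n = 4) on the control diet. Ccl25 in KO was at −0.01 ± 0.0806 (SE, limma adjusted p = 0.964) averaged over diets, with the KO mean below WT on ezetimibe and above it on the control diet. Cdh1, the E-cadherin bound by CD103, was at 0.15 ± 0.0885 (SE, limma adjusted p = 0.332), and Il15 at 0.26 ± 0.206 (SE, limma adjusted p = 0.492). The butyrophilin-like genes Btnl1 and Btnl6, whose products maintain gut gamma delta T cells, were at 0.16 ± 0.0850 (SE, limma adjusted p = 0.287) and 0.03 ± 0.139 (SE, limma adjusted p = 0.916). None of these 5 passed the test.

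Markers of other cell types were examined beside the set, because libraries of one group differed in them. Over all tested genes 4.04% passed for KO against WT averaged over diets, and 2.4% were lower. B and plasma cell genes had a median of −0.72 in KO, with 0 of 10 lower and Sdc1, of plasma and epithelial cells, higher at 0.40 ± 0.0859 (SE, limma adjusted p = 0.025). Lymphoid follicle genes had a median of −1.55, with 1 of 8 lower (Gp2, of the epithelium over follicles, at −1.71 ± 0.427 (SE, limma adjusted p = 0.0378)). Their summed level was 272, 47.2, 31.5 and 28.8 normalised counts in KO on ezetimibe, against 129.9, 264, 178 and 229 in WT on ezetimibe. On the control diet it was 27.6, 233 and 32.5 in KO, against 36.3, 253, 180.3 and 424 in WT. WT control replicate 1, at the low end of the follicle genes, had 11795 as its sum of the 46 genes, and WT control replicate 4, at the top of the follicle genes, had 7788, the lowest of its group. In KO on the control diet both sums ran together, since replicate 2 was highest of its group in both the follicle genes (233) and the 46 genes (7559).

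Genes of dividing cells were lower in KO, 9 of 10, with a median of −1.05, beside 2.4% lower over all tested genes. Their sum ranged over 1768 to 2339 normalised counts in KO and 2383 to 3367 in WT on ezetimibe. On the control diet it ranged over 1518 to 2506 in KO and 2302 to 4710 in WT. Of 8 Paneth cell genes 3 were lower (Defa17, Defa22 and Mmp7), with a median of −1.10, beside the same 2.4%. Macrophage and dendritic cell genes had a median of −0.14 with 0 of 11 lower, and stromal genes one of 0.12 with 0 of 9 passing. Of 3 tested mast cell and granulocyte genes, Kit was lower at −0.58 ± 0.117 (SE, limma adjusted p = 0.0223). The 12 enterocyte genes had a median of 0.19, all 12 were positive and 0 passed. For ezetimibe averaged over genotypes, the median was −0.21 for B and plasma cell genes, 0.01 for follicle genes, 0.08 for genes of dividing cells and 0.12 for enterocyte genes, and 0 genes of these lists passed. Of the macrophage, stromal and Paneth cell genes, 1 passed on ezetimibe, the macrophage gene C1qc, which was lower at −1.37 ± 0.256 (SE, limma adjusted p = 0.0118). The part of these cell types in the differences of the set was not tested.

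**Figure D5:**
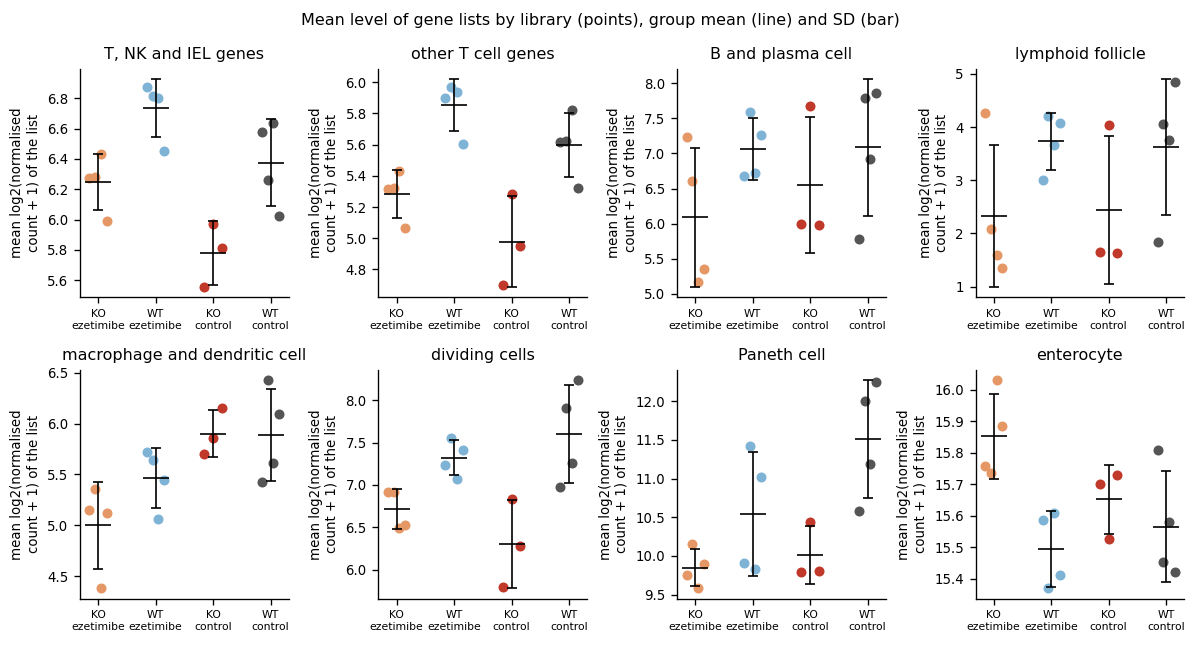
Mean log2(normalised count + 1) of the genes of the set and of 7 other lists in each library (points), with the group mean (line) and SD (bar), in the order KO and WT on ezetimibe, then KO and WT on the control diet. The set and the other T cell genes have a higher mean in the WT group of each diet. The same holds for the B and plasma cell, follicle, dividing cell and Paneth cell genes. Macrophage and dendritic cell genes have a higher mean in WT on ezetimibe only, and enterocyte genes have a higher mean in KO on each diet. The follicle genes spread widely within groups.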

How the data were processed

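Per the labels' protocols, TRIzol served for RNA extraction and the NEBNext Ultra II kit for libraries. The submitters' processing notes name mm10 as the build and the tools STAR 2.6.0c, DESeq2 and FastQC. The read counter, the annotation and the use of strand, each not given in the sources used here, leave a limit: a gene and an overlapping partner could not be told apart (over 10% of exonic length in 5 of the 46 genes). The deposited values are a signal, DESeq2-normalised counts of 26844 genes in 15 libraries, per the file headers. In each library 100% of them were whole multiples (within 0.01) of what 1 read is worth, so whole reads were recovered, and depth is their total. The authors also deposited tables of their own DESeq2 comparisons with a mean signal, log2 fold change, Wald score, p-value and fold change (ratio), per the file headers. These are quoted only where named.

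Groups follow the genotype and diet that the labels give. No 2 libraries of a group agreed within sampling noise (chi-square per degree of freedom of 12.9 or more). limma-trend (limma 3.58.1, R 4.3.3) on log2(value + 1) was fitted to all 15 libraries over the 14299 genes with at least 10 in at least 3 libraries, with Benjamini-Hochberg adjustment and a threshold of 0.05. Averaged comparisons are the mean of 2 single-diet or single-genotype contrasts. edgeR 4.0.16 and DESeq2 1.42.0 on the recovered reads, pseudocounts of 0.5 and 5, no filter, a mean of at least 50, TMM scaling, the compared groups alone, the replicate number as a block and each library left out were alternatives. DESeq2 without a filter and leaving out both ends of the first principal component were chosen after seeing the data. Scripts were tested on simulated data. Positions are from GENCODE M21 on GRCm38, the assembly of mm10. Figures were drawn with matplotlib 3.10.9. Printed with every library value are Cd3e, Cd8a, Cd4, Itgae, genes called in any comparison or listed by the authors, and in each role the 3 genes with the smallest p for KO against WT averaged over diets. In the other lists, called genes and the 2 with the smallest p could be named, and Ccl25, Cdh1, Il15, Btnl1 and Btnl6 were chosen after their values were seen. The genes of the set, the lists and the tests were chosen with earlier results of these data known.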

Additional observations from a re-analysis of the deposited data

Results flagged for a closer look

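In 5 of 105 groups of 4 libraries, examined for the 27 genes given library by library and the 8 log2 ratios, 1 library stood apart from the other 3 by Dixon's test. Chance would give about 1 in 20 such groups if they were independent. They share libraries and genes, so no conclusion is drawn from the number. The KO control group, with 3 libraries, was not examined. Pik3cd stood at 204 normalised counts in KO ezetimibe replicate 3, above the rest of its group. Rac2 stood at 230.2 in KO ezetimibe replicate 1, above the rest of its group. Cd3e stood at 178 in WT ezetimibe replicate 4, below the rest of its group. Cd4 stood at 73.6 in WT control replicate 2, above the others, and Coro1a at 248 in WT control replicate 1, below them. Counted over the 44 tested genes, KO ezetimibe replicate 4 was lowest of its group for 30 of 44 genes, WT ezetimibe replicate 4 for 36, KO control replicate 1 for 33 and WT control replicate 4 for 29.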

How the results depend on the processing

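The median fold change of the 44 genes kept its direction under all 10 or 11 settings besides leaving out libraries, at −0.64 to −0.52 for KO averaged over diets and 0.36 to 0.52 for ezetimibe averaged over genotypes. The number of genes that passed moved more; the causes were not tested. DESeq2 with and without a filter gave 11 for KO on the control diet, 1 and 2 for KO on ezetimibe, 9 for ezetimibe in KO and 17 for ezetimibe averaged over genotypes (3.09% and 1.58%, 0.601% and 0.268%, 8.08% and 4.14%, 6.65% and 3.44% of all tested genes). With the compared groups alone, KO on the control diet and ezetimibe in KO had 0 (0.0210% and 0.112%). A mean of at least 50 gave 5 for ezetimibe in KO (3.27%). Without both ends of the first principal component there were 5 for KO on the control diet, 0 for ezetimibe in KO and 3 for ezetimibe averaged over genotypes (0.177%, 0.0848% and 0.764%). With 1 library left out, the count was 3 to 20 for KO averaged over diets (0.231% to 8.47%), 0 to 4 for KO on the control diet (0.0210% to 0.885%), 0 to 7 for ezetimibe in KO (0.0351% to 3.20%) and 3 to 15 for ezetimibe averaged over genotypes (1.05% to 4.04%), and the interaction median lay between −0.0015 and 0.25. Of the averaged values, those that changed sign with 1 library left out were Cd4 in KO (−0.12 to 0.094), Tbx21 on ezetimibe (−0.12 to 0.099), and the log2 ratios to Cd3e of Ccr9 (−0.11 to 0.0023 for genotype, −0.082 to 0.016 for diet), Cd3g (−0.035 to 0.068), Itgae (−0.15 to 0.021), Klrd1 (−0.098 to 0.052 for genotype, −0.12 to 0.037 for diet) and Ptprc (−0.15 to 0.048), and that of Cd8b1 to Cd8a (−0.024 to 0.22). Of the 27 genes given library by library, 0 changed sign for KO within either diet, 3 for ezetimibe in WT (Cd4 at −0.17 to 0.22, Cd8b1 at −0.13 to 0.24 and Tbx21 at −0.21 to 0.13), 1 for ezetimibe in KO (Tbx21 at −0.22 to 0.20) and 15 for the interaction, among them Klrk1 (−0.40 to 0.57). The pseudocount moved the genotype difference of Cd8b1 to Cd8a over −0.28 to −0.16.

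The labels share replicate numbers across groups without saying what they mark. Over 21 pairs of libraries with the same number, deviations from group means correlated with r between −0.24 and 0.33, and 12 pairs were over 0.1. The median r was 0.13 for the 21 pairs and −0.03 for pairs with different numbers, and 2 of 15 libraries correlated best with their own number. The main fit used no replicate block, because the labels do not say what a number marks. These correlations cannot show whether libraries of the same number share something. Replicate 4 was lowest of its group for 30 of 44 genes in KO ezetimibe, 36 in WT ezetimibe and 29 in WT control. The KO control group had no replicate 4. What the numbers mark was not tested. With the replicate block, 14 genes passed for KO on the control diet, 28 for KO averaged over diets, 1 for ezetimibe in WT, 18 for ezetimibe in KO and 26 for ezetimibe averaged over genotypes (1.62%, 6.45%, 0.378%, 13.4% and 10.4% of all tested genes), and Tbx21 on ezetimibe was at 0.063. Genes at a few reads per library, such as Klrk1, Cd2, Xcl1 and Eomes, are limited by counting error.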

Other observations

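Ligands and receptors that the set pairs with were also compared between diets, averaged over genotypes. Of the 19 tested, 0 passed, beside 2.48% of all tested genes, with a median of 0.20 and 5 of 19 negative. H2-T23, a class I molecule that presents to the CD94 receptor, was at 0.35 ± 0.0981 (SE, limma adjusted p = 0.0703). Btnl2, a butyrophilin-like gene, was at 0.29 ± 0.0778 (SE, limma adjusted p = 0.0616). Tnfrsf14, a receptor for CD160, was at 0.57 ± 0.183 (SE, limma adjusted p = 0.101). Il15ra, which presents interleukin 15, was at 0.28 ± 0.0981 (SE, limma adjusted p = 0.135) and Il15 itself at 0.11 ± 0.206 (SE, limma adjusted p = 0.811). H2-T23, Btnl2, Tnfrsf14, Il15ra and Il15, all positive, were chosen after their values were seen.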
